A study of Ovis aries with 16 samples.

Results

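Ketamine given to the fetus before a period of hypoxia was compared with hypoxia without ketamine in the hippocampus of late-gestation fetal sheep. The members are the 4 arrays of fetuses with hypoxia and ketamine (HK) and the 5 arrays of fetuses with hypoxia and no ketamine (hypoxia control, HC). They were chosen by their labelled treatment and make up 9 of the 16 hippocampus arrays of the study. In the ketamine group the RNA of several innate immune genes was lower, among them CD14, TLR2, TLR4, TNF, IL1B, CEBPB and MX2. The survival gene MCL1 was lower as well, with all 4 HK arrays below all 5 HC arrays. Higher in the ketamine group were SLIT2, BRS3, THRB, ESR1, SFN, SLC4A4 and GRM8, genes of different functions. No probe passed adjustment for the number of probes tested, the HC arrays differed widely from each other, and most of the named calls were lost when some single array was left out. When only the HC and HK arrays were fitted, none of the innate immune genes named here met the criterion.

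All fetuses and ewes carried chronic catheters, with ampicillin put into the amniotic fluid at surgery and given to the ewe afterwards, and most fetuses were twins. Hypoxia lasted 30 min and was produced by nitrogen led into the trachea of the ewe, followed by 23.5 h of normoxia. HK fetuses received 3 mg/kg ketamine intravenously shortly before the hypoxia, and HC fetuses received none. Hippocampi of both groups were collected 24 h after the start of the hypoxia. The remaining 7 arrays of the 16 are normoxia control (NC, 3 arrays) and normoxia with ketamine (NK, 4 arrays), collected on the same schedule. Each array is numbered within its group by the replicate number of its label, so HC4 is the array of HC replicate 4. Nothing in the labels ties a replicate number to a pregnancy, so it is not known which fetuses shared a ewe. Per the paper, whole pregnancies were assigned at random to normoxia or hypoxia, so HC and HK may hold twins of the same ewe. The p values below measure the spread between these samples in a fit without pairing. They take no account of shared ewes.

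Ketamine blocks the NMDA type of glutamate receptor, through which excess glutamate injures neurons when oxygen is short. Hypoxia also starts inflammation in the brain, in which microglia respond through Toll-like receptors, the sensors of bacterial products and of molecules from damaged cells. The study asked how ketamine given before transient hypoxia alters gene expression in the fetal brain.

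Values are log2 intensities of single-colour arrays with each array's 75th percentile subtracted, and a difference is HK minus HC on that log2 scale. Where arrays are listed, intensities are scaled so that the 75th percentile of every array is 1000 units. A spot is called well above background when its intensity exceeds the background by 13 standard deviations. Tested were the 12543 of 15008 probes that passed this mark on 3 or more of the 16 arrays, with limma's moderated test in a fit of all 4 groups. An unadjusted p under 0.05 is called the criterion, and raised, lowered, rose and fell are used only for probes past it. A gene is read by its brightest tested probe unless another is named.

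At the criterion 359 probes were higher in HK (2.86% of those tested) and 235 were lower (1.87%), 594 together (4.74%). This is less than the 5% that such a criterion passes where nothing differs, so the lists below are candidates. After Benjamini-Hochberg adjustment limma called 0 probes (0.00%), against the 594 at an unadjusted p under 0.05. The smallest adjusted p was 0.969, which is also that of every named gene called raised or lowered below. The median difference was 0.42 among the raised and -0.50 among the lowered probes, against 0.02 over all probes tested. Differences over 1 on the log2 scale were found in 32 raised probes, and 40 lowered probes fell by more than 1. For 126 probes (1.00%) the groups were fully separate, with 81 of them higher and 45 lower in HK, and 89 of the 126 also met the criterion. Counting gene names by their brightest probe, 26 of 812 were higher (3.20%) and 22 were lower (2.71%), with a median of 0.04 over all 812. Of the 12543 probes tested, 11018 were well above background on all 9 hypoxia arrays. The share near background is a property of the array and no result about the members.

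**Figure D1:**
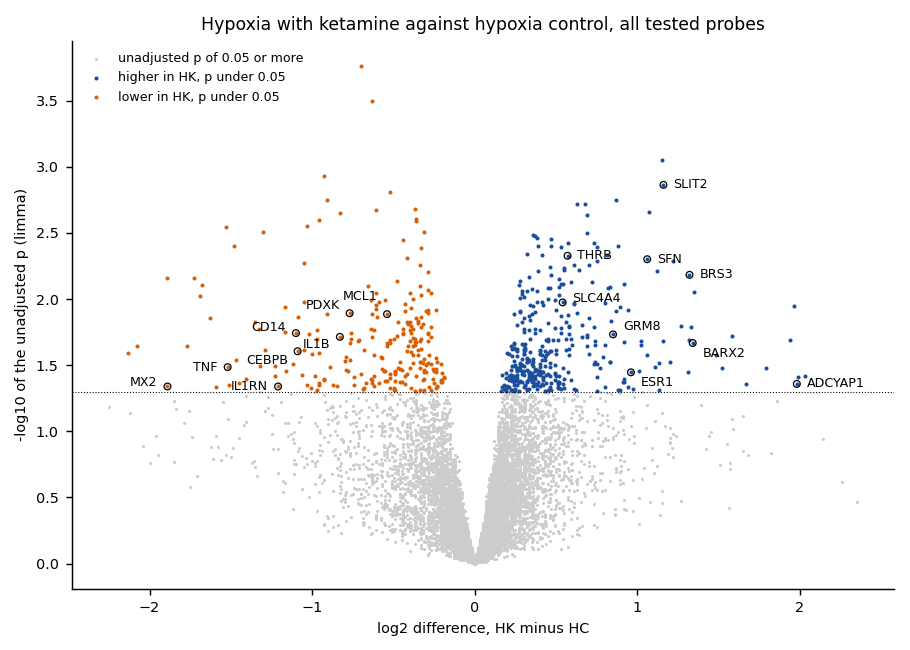
Each point is a probe, with the log2 difference HK minus HC on the horizontal axis and minus log10 of the unadjusted p on the vertical axis. Of 12543 probes, 359 were higher and 235 lower in HK at an unadjusted p under 0.05.

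The spread between arrays was wider in the hypoxia groups than in the normoxia groups, with a median standard deviation per probe of 0.257 in HC and 0.242 in HK, against 0.178 in NC and 0.210 in NK. From the mean of the other arrays of its group, HC5 deviated most, with a root mean square of 0.632. HC1 (0.601) and HK2 (0.596) followed, and of the hypoxia arrays HC2 deviated least (0.475). Leaving out HC1 changed the counts to 580 raised and 491 lowered probes, and leaving out HK3 left 235 raised and 174 lowered. Leaving out any other array left the raised count between 254 and 460 and the lowered count between 177 and 343. The count of probes without overlap lay between 183 and 433 without single arrays, where it can only stay or grow. Among the 359 raised probes HC1 was the highest HC array in 149, and among the 235 lowered probes it was the lowest HC array in 89. HC1 thus lay nearest to HK for many of the probes that passed.

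The arrays lay on 2 slides of 8, with replicates 1 and 2 of every group on slide 1 and the others on slide 2. Over the raised probes the median difference was 0.36 on slide 1 and 0.44 on slide 2, and over the lowered probes it was -0.43 and -0.56. Over all 12543 probes the sign was the same on both slides for 54.6%. With the slide as a block in the fit, 426 probes were raised and 268 lowered.

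**Figure D2:**
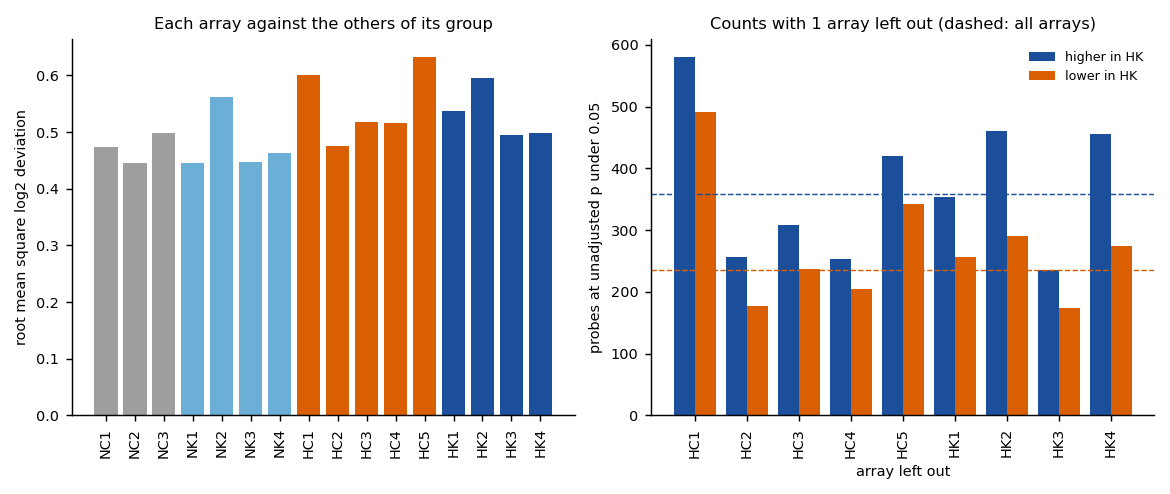
Spread between the hypoxia arrays, with each array's root mean square deviation from the mean of the other arrays of its group and the counts left without that array. HC5 deviated by 0.632 and HC1 by 0.601, and without HC1 580 probes were raised.

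The labelled tissue was checked with marker genes, which were picked after their values were seen. The somatostatin gene SST, a marker of inhibitory neurons, stood at 32123, 22851, 18416, 32919 and 3636 units on HC1 to HC5 and at 36004, 33678, 36173 and 37198 on HK1 to HK4. HC5 lay far below the other 8 arrays. NEUROD1, a transcription factor of hippocampal granule cells, stood at 2145, 2498, 3257, 2542 and 16.6 units in HC and at 1446, 405, 2598 and 1626 in HK. Again HC5 was the lowest, with almost no signal. The NMDA receptor subunit GRIN1 stood at 481, 294, 454, 340 and 107 units in HC and at 503, 172, 465 and 255 in HK, with HC5 lowest. The AMPA receptor subunit GRIA2 stood at 4183, 3889, 4108, 3837 and 2557 units in HC and at 4702, 3747, 4943 and 3366 in HK, and here too HC5 was below the rest. The astrocyte gap junction gene GJA1 stood at 5669, 8724, 13363, 7513 and 12079 units in HC and at 6142, 8452, 6989 and 9009 in HK. HC5 was not low for this gene, and HC3 was the highest. TTR, made by choroid plexus, stood at 371, 41473, 7437, 3330 and 77564 units in HC and at 8378, 50343, 1121 and 35030 in HK, a wide spread within both groups, with the HC5 spot marked as saturated. IGFBP2 of the same list was highest on the same arrays (HC2, HC5, HK2 and HK4), while CLDN3 and IGF2 were not, so the amount of choroid plexus is not read from TTR.

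HC5 therefore stands apart from the other hypoxia arrays by low RNA of most genes of the hippocampal neuron list. GRIA4 of that list was not low in HC5 (120 units). HC5 was also the lowest HC array for genes outside the list, such as CD14 and SELP below. Counts and many of the values are given with and without HC5. Whether the dissection of HC5 differed was not tested, and it would bear on every difference that includes this array. In whole tissue, fewer cells of a type and less RNA per cell cannot be told apart. Without HC5, 420 probes were raised and 343 lowered, and 1 passed adjustment. Gene names past the criterion were then 31 higher (3.82%) and 42 lower (5.17%). Of the 20 raised named genes described below, 16 met the criterion without HC5, and of the 17 lowered ones 17 did.

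The 17 lowered named genes include several that sense or answer bacterial lipopolysaccharide (LPS). CD14, the coreceptor that hands LPS to TLR4, stood at 370, 783, 542, 460 and 159 units in HC and at 379, 225, 104 and 150 in HK. HC2, HC3 and HC4 lay above every HK array, while HC1 and HC5 lay inside the HK range. CD14 met the criterion and was 2.14-fold lower in HK (SE 0.41 on the log2 scale), and fell by 0.88 on slide 1 and 1.45 on slide 2 (-1.14 with the slide as a block). Without HC2, HK3 or HK4 it missed the criterion (-0.98 to -0.81), and without HC5 it was -1.44. The other CD14 probe fell by 1.05, but its sequence is nearly the same, so the probes are not separate evidence, as the sequences below show, with the bases shared by both probes in capitals.
CD14 brightest probe: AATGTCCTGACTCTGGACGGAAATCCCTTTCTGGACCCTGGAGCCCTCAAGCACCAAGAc
CD14 other probe: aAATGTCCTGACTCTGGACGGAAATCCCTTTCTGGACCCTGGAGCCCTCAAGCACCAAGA

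TLR4, the LPS receptor, stood at 42.3, 80.1, 49.6, 71.9 and 49.6 units in HC and at 26.6, 75.8, 27.1 and 32.3 in HK. HK1, HK3 and HK4 lay below every HC array, and HK2 lay among the highest HC arrays. TLR4 fell by 0.64 (SE 0.29), 1.56-fold lower, and by 0.37 on slide 1 and 0.92 on slide 2 (-0.65 with the slide as a block). Without HC2, HC4, HK1, HK3 or HK4 it missed the criterion (-0.59 to -0.49), and without HC5 it was -0.69. TLR2, a receptor for bacterial lipoproteins, stood at 167, 161, 171, 324 and 114 units in HC and at 91.2, 126, 90.3 and 163 in HK. HK1 and HK3 were below every HC array, HK2 and HK4 were inside the HC range, and HC4 was the highest. TLR2 fell by 0.63 (SE 0.28), 1.54-fold lower, and by 0.62 and 0.60 on the slides (-0.59 with the slide as a block). It missed the criterion without HC1, HC3, HC4, HK1, HK2 or HK3 (-0.67 to -0.41), and without HC5 it was -0.78. MYD88, the adaptor these receptors share, was not past the criterion at -0.24 (SE 0.16).

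TNF, the cytokine released early by activated microglia, stood at 23.6, 98.7, 42.8, 64.4 and 29.6 units in HC and at 7.17, 82.6, 12.8 and 8.14 in HK. HK1, HK3 and HK4 lay below every HC array, while HK2 was higher than all HC arrays but HC2. TNF was well above background on 5 of 5 HC and 2 of 4 HK arrays. It fell by 1.52 (SE 0.64), and by 0.99 and 2.09 on slides 1 and 2 (-1.60 with the slide as a block). These sizes rest partly on dim values on HK1, HK3 and HK4, so they are not read as exact and no fold is given. TNF missed the criterion without HC2, HC4, HK1, HK3 or HK4 (-1.42 to -1.14), and without HC5 it was -1.68. IL1B, the cytokine interleukin 1 beta, stood at 335, 188, 142, 424 and 204 units in HC and at 82.8, 239, 118 and 137 in HK. HC1 and HC4 were the highest, HK2 lay inside the HC range and the other HK arrays lay below it. IL1B fell by 0.83 (SE 0.32), 1.78-fold lower, and by 0.83 and 0.86 on the slides (-0.83 with the slide as a block). IL1B missed the criterion without HC4 or HK1 (-0.63 to -0.60), and without HC5 it was -0.89.

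IL1RN encodes the antagonist of the interleukin 1 receptor, which inflammatory signals also induce, and stood at 15.8, 116, 42.3, 61.3 and 16.6 units in HC and at 9.64, 31.1, 11 and 22 in HK. HC2, HC3 and HC4 were above every HK array, and HC1 and HC5 lay inside the HK range. IL1RN fell by 1.21 (SE 0.55), with -1.31 and -1.17 on the slides. Only 2 of 4 HK arrays were well above background, so these sizes rest partly on dim values. They are not read as exact and no fold is given. With the slide as a block IL1RN missed the criterion (-1.22), as it did without HC2, HC3, HC4, HK1 or HK3 (-1.17 to -0.81). Without HC5 it was -1.51. CEBPB, a transcription factor of the acute inflammatory response, stood at 136, 215, 99.2, 192 and 33.8 units in HC and at 82.6, 39.5, 43.4 and 57.5 in HK. HC1 to HC4 lay above every HK array, and HC5 lay below all of them. CEBPB fell by 1.09 (SE 0.43), 2.13-fold lower, and by 1.58 and 0.79 on the slides (-1.12 with the slide as a block). It missed the criterion without HC2, HC4, HK2 or HK3 (-0.99 to -0.86), and without HC5 it was -1.53.

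As a list, the 23 tested genes of the response to lipopolysaccharide had 0 higher and 7 lower members. Over the 812 gene names 2.71% were lower. The median difference of the list was -0.64, against 0.04 over all gene names. The lower members include CD14, TLR2, TLR4, TNF and IL1B, which the study also measured by quantitative PCR. The lists were chosen with earlier results of these data known, so this list is no independent evidence. The list median was -0.62 on slide 1 and -0.60 on slide 2. Averaged over the list, the arrays lay at 0.67, 1.43, 0.57, 1.68 and -0.24 in HC and at -0.22, 0.80, -0.39 and 0.17 in HK, relative to the mean of the 16 arrays. HC2 and HC4 were the highest, HK2 was the highest HK array, and HC5 lay with the lower HK arrays. Without single arrays the list median lay between -0.91 and -0.52. It was -0.89 without HC5, and 14 of the 23 genes were then lower, against 5.17% of all gene names. Among those that joined was SELP, an adhesion molecule of activated endothelium, at 742, 766, 396, 2629 and 60.9 units in HC and 269, 302, 43.4 and 150 in HK. HC1 to HC4 lay above every HK array and HC5 lay near the lowest of them. With all arrays its difference of -1.76 (SE 0.90) was not past the criterion, and without HC5 it fell by 2.53.

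PTX3, an opsonin of the acute phase, stood at 587, 875, 423, 742 and 71.9 units in HC and at 178, 194, 222 and 263 in HK. HC1 to HC4 were all above the HK arrays and HC5 was below all of them. It was not past the criterion with all arrays (-0.95, SE 0.55) and fell by 1.58 without HC5. NFKBIA, the inhibitor that NF-kappaB itself induces, stood at 5273, 4016, 4329, 5558 and 1500 units in HC and at 4168, 2410, 2060 and 2801 in HK. Only HK1 and HC5 fell outside the separation of the groups. NFKBIA too was not past the criterion with all arrays (-0.45, SE 0.32) and fell by 0.78 without HC5. PTGS2, the inducible cyclooxygenase, moved from -0.28 (SE 0.83), not past the criterion, to -1.14, past it, when HC5 was left out. The next genes were read after their values were seen. CXCL8, a chemokine for neutrophils, was at -2.12 (SE 1.09) with all arrays, not past the criterion, and past it at -2.80 without HC5. ICAM1, an adhesion molecule for leukocytes, was at -1.27 (SE 0.64) and came past the criterion at -1.70. JUNB, an immediate early gene, went from -0.30 (SE 0.26) to -0.56 and past it. These genes of the same response thus met the criterion when HC5, the array low for most neuron genes, was set aside, and not with all arrays.

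**Figure D3:**
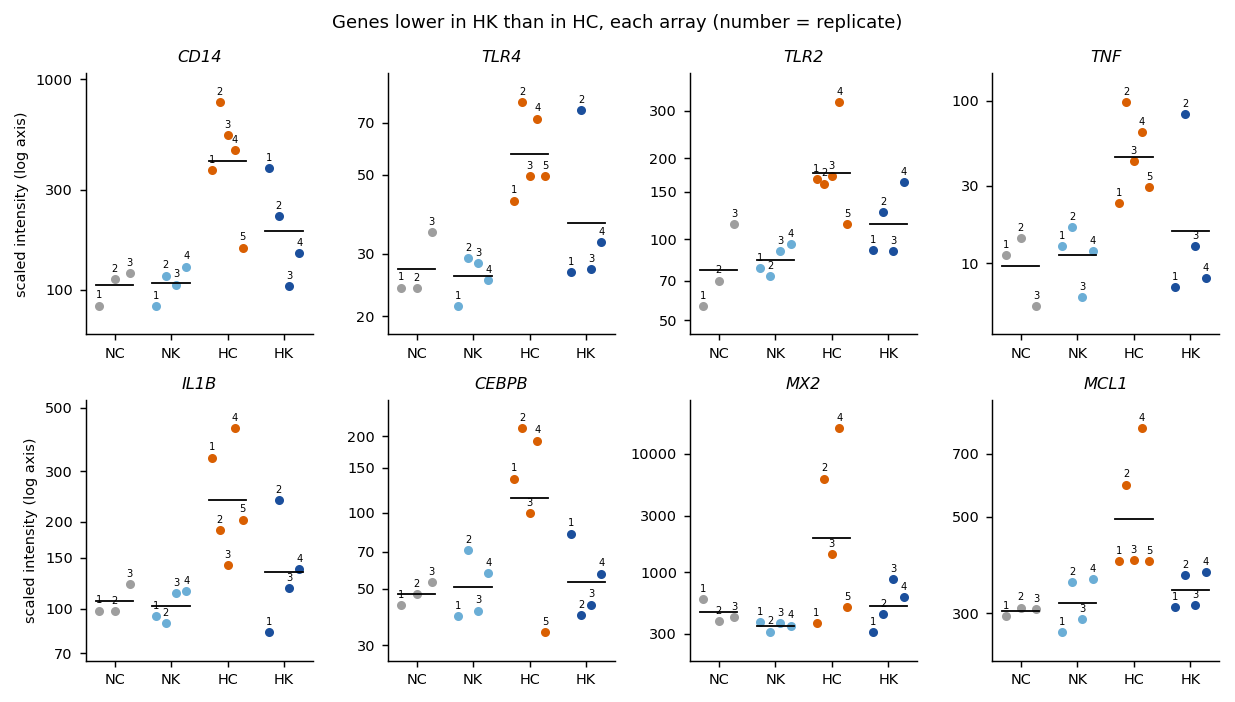
Lowered genes on every array, in units scaled to a 75th percentile of 1000, on a log axis with points labelled by replicate and bars at the group means of the log2 values. MCL1 stood between 396 and 802 units in HC and between 310 and 373 in HK.

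Other immune lists overlap with this one in their members. TLR signaling had 0 higher and 3 lower of 13 tested genes and a median of -0.18, with -0.10 on slide 1 and -0.28 on slide 2. Cytokines, chemokines and receptors had 0 higher and 3 lower of 31 and a median of -0.15, with -0.24 and -0.15 on the slides, and 24 of the 31 differences were negative, with a mean of -0.42. Without HC5, 6 of the 31 were lower and the median was -0.23. The genes measured by quantitative PCR in the study had 0 higher and 5 lower of 10, which were CD14, TLR2, TLR4, TNF and IL1B, with a median of -0.74 and slide medians of -0.86 and -0.73. All 10 had a negative difference, and without HC5 the median was -1.01 with 8 lower. That list is no independent evidence, because its genes were selected in the study with these samples.

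Interferon-stimulated genes had the lowest median of all lists, -1.25 over 7 tested genes, with 0 higher and 1 lower, and -1.07 and -1.08 on the slides. The list averages were -0.41, 2.51, 0.40, 3.46 and 0.50 in HC and -1.42, 1.20, -0.17 and 0.83 in HK. Without single arrays the list median lay between -1.78 and -0.59. At its weakest, without HC4, it was close to the medians of the quantitative PCR (-0.59) and lipopolysaccharide (-0.56) lists without the same array. HC2 and HC4 were the highest, and HK2 and HK4 lay above the other HC arrays. MX2, an antiviral GTPase, stood at 371, 6178, 1414, 16482 and 506 units in HC and at 310, 440, 874 and 615 in HK. HC2, HC3 and HC4 were above every HK array, while HC1 and HC5 lay inside the HK range. MX2 fell by 1.89 (SE 0.87), 3.72-fold lower, with -2.03 and -1.63 on the slides but missed the criterion with the slide as a block (-1.85). The same happened without HC2, HC3, HC4, HK1, HK2 or HK4 (-2.01 to -1.12), and without HC5 it was -2.38. CXCL10, a chemokine induced by interferon, stood at 1281, 18335, 603, 40370 and 4001 units in HC and at 71.3, 11390, 480 and 9874 in HK. Both groups held arrays more than an order of magnitude apart, and its difference of -1.75 was not past the criterion, nor was it without HC5 (-1.80). ISG15 and MX1 (-1.13), further interferon-induced genes, were not past it either.

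Cell markers were read in the same way. Microglia and macrophages had 0 higher and 2 lower of 10 tested genes and a median of -0.30, with -0.07 on slide 1 and -0.56 on slide 2, and the lower ones were CD14 and FCGR1A. FCGR1A, an immunoglobulin receptor of macrophages and microglia, stood at 49.5, 181, 68.8, 229 and 88.9 units in HC and at 32.8, 68.4, 68.1 and 49.6 in HK. HC2 and HC4 were the highest, and of the HC arrays only HC1 lay inside the HK range. FCGR1A fell by 1.00 (SE 0.40), 1.99-fold lower, and by 1.00 and 0.95 on the slides (-0.96 with the slide as a block). FCGR1A missed the criterion without HC2, HC4, HK1 or HK4 (-0.97 to -0.71). The microglia list averages were -0.23, 1.65, 0.81, 0.22 and 0.24 in HC and -0.02, 1.26, -0.36 and 0.31 in HK, so the groups overlapped widely and HC2 and HK2 were the highest. The positive differences of the list were those of lysozyme (LYZ) at 1.68 (SE 1.11) and CLEC7A at 0.21, neither past the criterion. Without single arrays the list median lay between -0.64 and -0.11.

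Neutrophil genes had 0 higher and 0 lower of 3 tested, and a median of 0.54 that lay between -0.15 and 1.29 when single arrays were left out. BAC5, an antimicrobial peptide of neutrophil granules, stood at 186, 1415, 7714, 262 and 1242 units in HC and at 244, 6143, 380 and 7344 in HK. HC3, HK2 and HK4 were far above the rest, so this gene follows single fetuses and not the groups. Lymphocytes had 0 higher and 0 lower of 5 and a median of -0.20, and red blood cells 0 higher and 0 lower of 2 and a median of -0.41. Choroid plexus had 0 higher and 0 lower of 6 and a median of 0.24, endothelium and vessel wall 0 higher and 0 lower of 12 and a median of 0.00, and meninges and mesenchyme 0 higher and 0 lower of 12 and a median of 0.03. The major histocompatibility complex had 0 higher and 0 lower of 2 and a median of 0.02. Astrocytes had 1 higher (SLC4A4) and 0 lower of 6 and a median of 0.00. Hippocampal neurons had 1 higher (GRIA4) and 0 lower of 7, and their median of 0.18 became -0.06 without HC5, with 2 higher and 1 lower. The lower gene was NEUROD1, which fell by 1.04 without HC5 and was not past the criterion with it (0.41, SE 1.23). No gene of the oligodendrocyte list was tested.

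**Figure D4:**
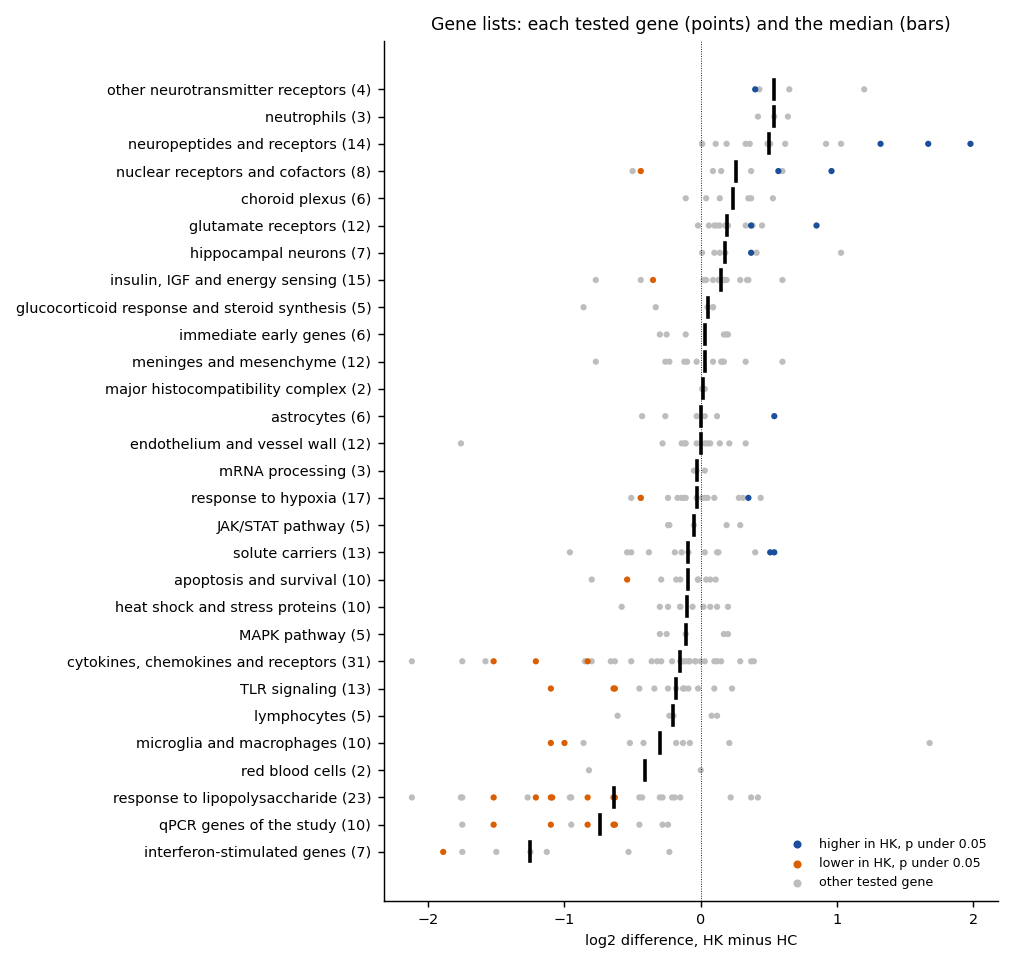
Median log2 difference HK minus HC of the tested members of each gene list, with each member as a point. The interferon list had the lowest median, -1.25, and 0.04 was the median over 812 gene names.

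Outside the immune lists, MCL1 had the steadiest decrease. MCL1, a survival protein of the BCL2 family, stood at 396, 594, 398, 802 and 396 units in HC and at 310, 367, 313 and 373 in HK. All HK arrays lay below all HC arrays, with HC2 and HC4 well above the rest and HC1, HC3 and HC5 close to HK4. MCL1 fell by 0.54 (SE 0.19), 1.46-fold lower, and by 0.52 and 0.56 on the slides (-0.54 with the slide as a block). It met the criterion without any 1 of the 9 arrays, the only lowered named gene that did, and was -0.63 without HC5. Apoptosis and survival as a list had 0 higher and 1 lower of 10 and a median of -0.09. Its sequence is given because all HK arrays lay below all HC arrays.
MCL1: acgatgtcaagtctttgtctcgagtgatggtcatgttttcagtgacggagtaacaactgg

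PDXK, the kinase that activates vitamin B6, stood at 2436, 4038, 2551, 3839 and 1562 units in HC and at 2568, 1474, 1105 and 1566 in HK. HC2 and HC4 were above every HK array, HK1 reached the middle of the HC arrays and HC5 lay with the other HK arrays. PDXK fell by 0.77 (SE 0.27), 1.70-fold lower, and by 0.69 and 0.92 on the slides (-0.78 with the slide as a block). Without HK3 alone it missed the criterion (-0.59). HIF1A, the oxygen-regulated transcription factor subunit, stood at 190, 187, 193, 171 and 116 units in HC and at 134, 119, 137 and 108 in HK. HC1 to HC4 lay above every HK array and HC5 lay among them. HIF1A fell by 0.44 (SE 0.17) and missed the criterion without HK4 (-0.38), and its other probe was at -0.30, not past it. ARNT, the partner of HIF1A, rose by 0.35 (SE 0.12), but its other probe was at -0.11, and without HK3 it missed the criterion (0.25). The response to hypoxia as a list had 1 higher and 1 lower of 17 and a median of -0.03.

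PPARG, a nuclear receptor of lipid metabolism, stood at 228, 163, 158, 146 and 111 units in HC and at 115, 120, 101 and 126 in HK. HC1 to HC4 lay above every HK array and HC5 was inside the HK range. PPARG fell by 0.44 (SE 0.17) and missed the criterion without HK3 (-0.38). CCN1, a matrix protein induced by growth factors and injury, stood at 544, 262, 171, 624 and 81.3 units in HC and at 135, 182, 105 and 112 in HK. HC1, HC2 and HC4 were above every HK array and HC5 was below them. CCN1 fell by 1.01 (SE 0.46) and missed the criterion without HC1, HC2, HC4, HK1, HK3 or HK4 (-1.02 to -0.69). MTHFD2, a mitochondrial enzyme of folate metabolism, fell by 0.72 (SE 0.28) and missed the criterion without HC2, HC4, HK2 or HK3 (-0.67 to -0.53). TXNIP, an inhibitor of thioredoxin, fell by 0.58 (SE 0.23) and missed the criterion without HC3, HK1 or HK3 (-0.54 to -0.36).

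IGF1R, the receptor of insulin-like growth factor 1, stood at 205, 236, 292, 205 and 215 units in HC and at 192, 184, 197 and 148 in HK. All HK arrays lay below all HC arrays, with HK1, HK2 and HK3 close to the lowest of them. IGF1R fell by 0.35 (SE 0.13), and without HK4 it missed the criterion (-0.26). Its other probe, which shares no long stretch of bases with the first, was at 0.06, so the decrease was seen with 1 of the 2 probes. Insulin, IGF and energy sensing as a list had 0 higher and 1 lower of 15 and a median of 0.15. Both probe sequences are given because the probes differ in their result.
IGF1R brightest probe: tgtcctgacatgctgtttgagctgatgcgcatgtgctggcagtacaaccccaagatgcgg
IGF1R other probe: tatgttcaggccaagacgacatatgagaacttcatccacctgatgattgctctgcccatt

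Among the 20 raised named genes, SLIT2 had the smallest p. SLIT2, a secreted guidance molecule that repels growing axons, stood at 30.8, 29.2, 13.4, 15.7 and 11.6 units in HC and at 37.5, 43.9, 55.1 and 32.5 in HK. All HK arrays lay above all HC arrays, and within HC the slide 1 arrays HC1 and HC2 were the highest. SLIT2 rose by 1.16 (SE 0.29), 2.23-fold higher, with 0.44 on slide 1 and 1.65 on slide 2 (1.13 with the slide as a block). It held without any 1 of the 9 arrays and was 0.99 without HC5. Its other probe, which overlaps the first by 25 bases, was at 0.15 (SE 0.63) and did not show the increase. Because the probes differ, both sequences are given, with the bases shared by both probes in capitals.
SLIT2 brightest probe: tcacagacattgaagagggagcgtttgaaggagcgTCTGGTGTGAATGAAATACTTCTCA
SLIT2 other probe: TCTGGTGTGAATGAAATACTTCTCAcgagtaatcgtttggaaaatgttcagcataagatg

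BRS3, an orphan receptor of the bombesin family linked to energy balance, stood at 21.4, 12.4, 7.09, 12.4 and 15.6 units in HC and at 27.4, 38.3, 40.3 and 26.2 in HK. All HK arrays lay above all HC arrays, although the gene is dim, with 3 of 5 HC and 4 of 4 HK arrays well above background. BRS3 rose by 1.32 (SE 0.42), a size that rests partly on dim HC values, with 0.99 and 1.55 on the slides (1.35 with the slide as a block), and met the criterion without any 1 of the 9 arrays. Its other probe also met the criterion without overlap of the groups, but only 2 of 5 HC arrays were well above background, so no size is given for it. The sequences are given because the probes share no long stretch of bases.
BRS3 brightest probe: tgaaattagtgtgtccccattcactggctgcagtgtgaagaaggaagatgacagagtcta
BRS3 other probe: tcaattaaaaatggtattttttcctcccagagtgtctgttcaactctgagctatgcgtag

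THRB, a thyroid hormone receptor of the developing brain, stood at 143, 119, 113, 103 and 93.1 units in HC and at 154, 163, 200 and 156 in HK. All HK arrays lay above all HC arrays, with HC1 nearest to them. THRB rose by 0.57 (SE 0.17), 1.48-fold higher, with 0.28 and 0.78 on the slides (0.56 with the slide as a block). It met the criterion without any 1 of the 9 arrays and was 0.50 without HC5. The estrogen receptor ESR1 stood at 208, 99.5, 106, 111 and 233 units in HC and at 243, 263, 307 and 296 in HK. The groups did not overlap, but HC1 and HC5 were nearer to HK than to the other HC arrays. ESR1 rose by 0.96 (SE 0.42), 1.95-fold higher, with 0.81 and 1.11 on the slides (1.01 with the slide as a block). It missed the criterion without HC2, HC3, HC4, HK2, HK3 or HK4 (0.84 to 0.99), and without HC5 it was 1.14. Nuclear receptors and cofactors as a list had 2 higher and 1 lower of 8 and a median of 0.26.

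SFN, the 14-3-3 protein sigma, stood at 34.6, 33.4, 33, 25.3 and 52.5 units in HC and at 94.9, 134, 34.4 and 62.6 in HK. HK1, HK2 and HK4 lay above every HC array and HK3 lay inside the HC range. SFN rose by 1.06 (SE 0.32), 2.08-fold higher, with 1.73 on slide 1 and 0.40 on slide 2 (1.03 with the slide as a block). It met the criterion without any 1 of the 9 arrays and was 1.21 without HC5. SLC4A4, the sodium bicarbonate cotransporter of astrocytes, stood at 19, 18.3, 20.9, 18.3 and 24.8 units in HC and at 27.4, 31.2, 35.2 and 24.1 in HK. HK1, HK2 and HK3 were above every HC array, and HK4 was just under HC5. SLC4A4 rose by 0.54 (SE 0.18), 1.45-fold higher, with 0.65 and 0.46 on the slides (0.55 with the slide as a block), and met the criterion without any 1 of the 9 arrays. The amino acid transporter SLC7A5 rose by 0.51 (SE 0.23), and missed the criterion with the slide as a block (0.50), as it did without HC2, HC3, HC4, HK1, HK2 or HK3 (0.32 to 0.50). Solute carriers as a list had 2 higher and 0 lower of 13 and a median of -0.09.

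**Figure D5:**
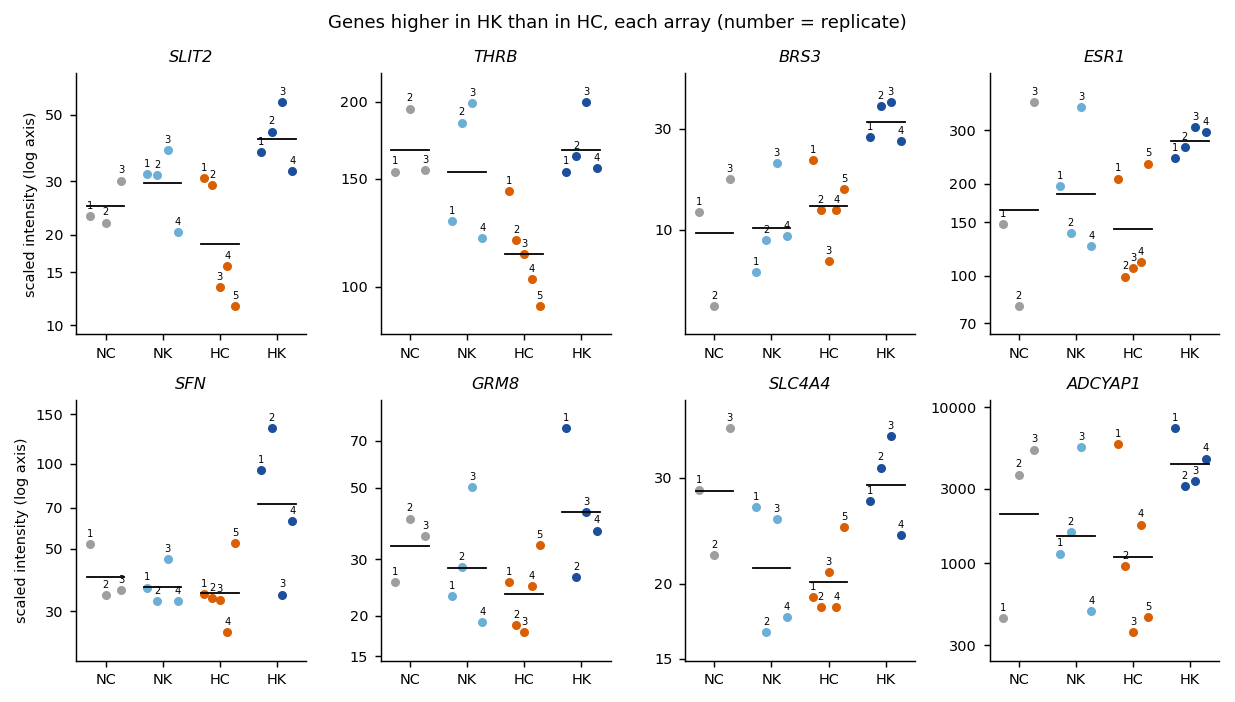
Raised genes on every array, in units scaled to a 75th percentile of 1000, on a log axis with points labelled by replicate and bars at the group means of the log2 values. SLIT2 stood between 11.6 and 30.8 units in HC and between 32.5 and 55.1 in HK.

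Genes of synaptic and peptide signalling were also among those raised. GRM8, a presynaptic metabotropic glutamate receptor, stood at 25.5, 18.7, 17.8, 24.7 and 33.2 units in HC and at 76.6, 26.4, 42.1 and 36.8 in HK. HK1 was the highest, HK3 and HK4 were just above the HC arrays, and HK2 lay under HC5. GRM8 rose by 0.85 (SE 0.32), 1.80-fold higher, with 1.04 and 0.69 on the slides (0.86 with the slide as a block), and it missed the criterion without HK1 (0.56). GRIA4, an AMPA receptor subunit, stood at 134, 102, 126, 129 and 120 units in HC and at 185, 127, 163 and 158 in HK. HK2 lay inside the HC range and the other HK arrays lay above it. GRIA4 rose by 0.37 (SE 0.13), 1.29-fold higher, and missed the criterion without HK1 (0.29), while its other probe was at 0.35, not past it. Glutamate receptors as a list had 2 higher and 0 lower of 12 and a median of 0.19, with 0.07 on slide 1 and 0.40 on slide 2, and a median of 0.05 without HC5.

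ADCYAP1, the gene of the neuropeptide PACAP, stood at 5829, 964, 363, 1775 and 451 units in HC and at 7364, 3127, 3354 and 4696 in HK. HC1 lay inside the HK range and the other HC arrays lay below it. ADCYAP1 rose by 1.98 (SE 0.90), 3.96-fold higher, with 1.02 and 2.58 on the slides, but missed the criterion with the slide as a block (1.96). It was also not past it without HC2, HC3, HC5, HK1, HK2, HK3 or HK4 (1.58 to 2.14), with 1.66 without HC5. CRHBP, the binding protein of corticotropin-releasing hormone, stood at 1173, 949, 630, 1098 and 614 units in HC and at 1697, 1523, 1449 and 989 in HK. HK4 lay inside the HC range and the others lay above it. CRHBP rose by 0.69 (SE 0.26) and missed the criterion without HC3, HC5 or HK1 (0.57 to 0.59). The galanin gene GAL stood at 4.72, 2.72, 7.98, 2.83 and 18.9 units in HC and at 10.4, 123, 9.01 and 8.65 in HK, and only HK2 was clearly high. GAL met the criterion, but only 1 of 5 HC and 2 of 4 HK arrays were well above background and none in normoxia, so no size is given. It passed the filter for signal only through its HK arrays, the higher group, and its call, still counted among the 20, is not read as an increase. It missed the criterion without HC1, HC2, HC4 or HK2 and when the slide was a block.

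Neuropeptides and receptors as a list had 3 past the criterion upward (2 of them, ADCYAP1 and BRS3, without counting GAL) and 0 lower of 14 tested genes, and a median of 0.50 against 0.04 over all gene names. All 14 had a positive difference, and the median was 0.30 on slide 1 and 0.43 on slide 2. The list averages were 0.39, -0.19, -0.58, -0.01 and -0.43 in HC and 0.30, 0.84, 0.45 and 0.49 in HK, so HC1 alone of the HC arrays reached the HK range. The list median lay between 0.40 and 0.66 without single arrays and was 0.43 without HC5. SST, which belongs to the list, was at 1.03 (SE 0.48), not past the criterion, and was past it at 0.47 without HC5. Other neurotransmitter receptors had 1 higher and 0 lower of 4 and a median of 0.54, and the higher gene was the adrenergic receptor ADRB1, which rose by 0.40 (SE 0.17) and missed the criterion without HC2, HC3, HK1 or HK3 (0.31 to 0.40).

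The remaining raised genes include several that rest on few arrays. BARX2, a homeobox transcription factor, stood at 41.6, 15.6, 18.2, 23 and 66.1 units in HC and at 105, 130, 37.4 and 51.7 in HK. HK1 and HK2 were above every HC array, and HK3 and HK4 lay inside the HC range. BARX2 rose by 1.34 (SE 0.52) and missed the criterion without HC2, HC3, HK1 or HK2 (1.06 to 1.18). PKLR, a pyruvate kinase, rose by 1.16 (SE 0.45), but its other probe was at 0.21. It missed the criterion without HC3, HC5, HK1 or HK3 (0.89 to 1.00). PKLR was well above background on 3 of 5 HC and 3 of 4 HK arrays, so its size rests partly on dim values. NFAT5, a transcription factor of osmotic stress, rose by 0.83 (SE 0.35), and missed the criterion without HC2, HC4, HC5, HK1 or HK3 (0.39 to 0.81). The same limit holds for NFAT5, with 3 of 5 HC and 3 of 4 HK arrays well above background. The Wnt receptor FZD2 rose by 0.80 (SE 0.37) and missed the criterion with the slide as a block (0.79), as it did without HC1, HC2, HC3, HC4, HK2 or HK3 (0.45 to 0.82). PRL, the prolactin gene, rose by 0.74 (SE 0.31) and missed the criterion without HC1, HK2 or HK3 (0.51 to 0.67). PAX4, a paired-box transcription factor, rose by 0.26 (SE 0.11), a small difference with groups that did not overlap, and missed the criterion without HC1, HC2, HK2, HK3 or HK4 (0.21 to 0.26).

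For PRKAA2, a catalytic subunit of the energy sensor AMPK, the other probe rose by 0.41 with groups that did not overlap, and met the criterion without any 1 of the 9 arrays, while the brightest was at 0.34, not past it. For NUS1, which serves dolichol synthesis, the other probe rose by 0.33 with groups that did not overlap, and the brightest was at 0.39, not past it. That other NUS1 probe missed the criterion without HC2, HC5, HK1, HK3 or HK4 (0.25 to 0.34). Genes outside the rule for named genes were read after their values were seen. Glucagon (GCG) had signal well above background on 3 of 4 HK and 0 of 5 HC arrays. Those 3 HK arrays, in the higher group, are enough to pass the filter for signal. The call of GCG, still counted below, is not read as an increase, and no fold is given. ATXN2L, a protein of stress granules, was well above background on 5 of 5 HC and 0 of 4 HK arrays. Here the HC arrays, the higher group, are enough to pass the filter. The call of ATXN2L, also counted below, is therefore not read as a decrease, and no fold is given. Including these, 11 further genes met the criterion, 6 higher and 5 lower.

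The remaining lists held few or no genes past the criterion. Glucocorticoid response and steroid synthesis had 0 higher and 0 lower of 5 and a median of 0.05, and immediate early genes 0 higher and 0 lower of 6 and a median of 0.03. The MAPK pathway had 0 higher and 0 lower of 5 and a median of -0.11, and the JAK/STAT pathway 0 higher and 0 lower of 5 and a median of -0.05. Heat shock and stress proteins had 0 higher and 0 lower of 10 and a median of -0.10, and mRNA processing 0 higher and 0 lower of 3 and a median of -0.03. These medians are over members with differences of both signs, and without HC5 immediate early genes and heat shock and stress proteins each had 1 lower. Among unnamed probes, A_70_P053871 rose by 0.87 and A_70_P062391 fell by 0.70, both picked for a small p.

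In normoxia the ketamine difference NK-NC shares no array with HK-HC and can be set beside it. The median NK-NC difference was 0.04 for the response to lipopolysaccharide, 0.06 for microglia and macrophages, -0.37 for interferon-stimulated genes and 0.10 for neuropeptides and receptors. For CD14 it was 0.05, for TNF 0.23, for MCL1 0.06 and for SLIT2 0.26, each with its own spread between fetuses. The interaction, which tests whether the HK-HC difference of a gene differs from its NK-NC difference, was past the criterion for 431 probes (3.44%) and for 31 of 812 gene names (3.82%), and 0 probes passed adjustment. Of the named genes 14 were past the criterion for it, among them SLC4A4 (0.96), SFN (1.18), GRM8 (1.08), THRB (0.68) and FCGR1A (-1.31). CD14 (-1.14) and TNF (-1.75) were not. Many named genes were chosen for their HK-HC difference, which is part of this contrast and raises the count. The 14 are thus not comparable with the shares over all probes or gene names. For most lowered immune genes a ketamine difference specific to hypoxia was thus not found by this test.

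Hypoxia against normoxia without ketamine (HC-NC) uses the same HC arrays, so chance in these arrays enters both differences with opposite signs, and the values are only placed side by side. IL1B was at 1.17 in HC-NC and -0.83 in HK-HC. TNF was at 2.24 and -1.52, and MX2 at 2.09 and -1.89. MCL1 was at 0.71 and -0.54, and PDXK at 1.62 and -0.77. Of the raised genes, THRB was at -0.56 and 0.57, SLC4A4 at -0.50 and 0.54, and SLIT2 at -0.42 and 1.16. BRS3, in contrast, was at 0.42 and 1.32, with the same sign in both. Whether the lowered genes were reversed by ketamine or were high by chance on some HC arrays cannot be told apart here.

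Among the 20 raised and 17 lowered named genes, the steadiest were those that met the criterion without any 1 of the 9 arrays, which were 5 raised (SLIT2, BRS3, THRB, SFN and SLC4A4) and 1 lowered (MCL1). With the slide as a block 16 of the 20 raised and 15 of the 17 lowered met the criterion. In a fit of only the HC and HK arrays 15 raised but only 5 lowered genes met it, and the lowered ones were MCL1, PDXK, HIF1A, PPARG and IGF1R. The calls of CD14, TLR2, TLR4, TNF, IL1B, IL1RN, CEBPB, MX2 and FCGR1A were thus lost when the normoxia arrays were left out of the fit. The differences themselves did not change there, with -1.10 for CD14, -0.83 for IL1B and -1.09 for CEBPB. With quantile normalization 19 raised and 17 lowered genes met it, with the authors' log2 values 10 and 12, and with normexp background correction 2 and 1. Those with normexp were ADCYAP1, CRHBP and MX2, so none of the steadiest genes met the criterion there. When the local background was also limited, an alternative chosen after seeing the data, 19 and 13 did. All 37 kept their sign in each of these, as genes picked for a difference on the same arrays mostly will. Their sizes did not all hold. With the authors' values BRS3 was at 0.06, GRM8 at 0.06 and CEBPB at -0.29, while CRHBP (0.58) and PDXK (-0.67) stayed nearer to their main values. Fewest of the lowered genes, 6 of 17, met the criterion without HK3, and fewest of the raised ones, 10 of 20, did so without HK3 as well.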

How the data were processed

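Groups and replicates follow the sample labels, and the members are the 9 hypoxia arrays of the 16 hippocampus arrays. Per the file headers, the spot intensities the authors deposited had been corrected by Feature Extraction for background and for trends within each array, surrogates replaced the dimmest values, and arrays were not normalized to each other. The header version, 10.1.1.1, differs from that in the paper's methods. The authors' deposited log2 values have equal quantiles on all arrays and are raised at low signal, with a median of 8.66 and negative controls near 8.04, and how they were normalized is not stated.

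Here control spots and spots marked by the scanner software as outliers were dropped, log2 of the processed intensity was taken, spots of a probe were averaged and the array's 75th percentile over non-control spots was subtracted. This percentile lay between 881.51 and 1199.5 units before scaling. The share of spots well above background ran from 76.66 to 82.61%, and dim probes and the number of arrays both limit precision. Of the tested probes, 88 lacked a value on some array. limma 3.58.1 in R 4.3.3 fitted the 4 groups, with a moderated 2-sided test of HK-HC and of the interaction (HK-HC)-(NK-NC). Tables and figures were made with Python 3.11.15, pandas 2.3.3, numpy 2.4.6 and matplotlib 3.10.9.

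Gene names were read from the gene name column of the scanner files, because no platform table was given, and through accessions from the RefSeq table. Of 15008 probes, 1556 (10.37%) received a name, for 952 names, and all others stay unnamed. Of the named probes, 1267 were tested. A name came from an accession for 693 probes, a gene number for 125, a current symbol for 502, an old symbol for 115, a synonym for 26, and 95 kept the name in the file.

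Named genes, 68 in all, were the 12 with the largest difference in each direction past the criterion with signal on at least 3 arrays per group, those past it with separate groups, the tested genes of the study's quantitative PCR, and of each gene list the members past the criterion or else the 2 with the smallest p. The members and the gene lists were chosen with earlier results of these data known. The lists were those named in the results, on immune responses and pathways, cell types, receptors, neuropeptides, nuclear receptors, hypoxia, glucocorticoids, immediate early genes, apoptosis, kinases, insulin, mRNA processing, heat shock and solute carriers. No set test was made.

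As alternatives, background was corrected by normexp (offset 50), arrays were scaled by quantiles or by the median, and the authors' values were used. Further ones were other filters, outlier spots kept, 1 probe per gene name or the mean of its probes, the slide or the replicate number as a block, each slide alone, the hypoxia arrays alone, array weights, a trended prior, each array left out, and, chosen after seeing the data, normexp with limited local background.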

Additional observations from a re-analysis of the deposited data

Results flagged for a closer look

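Each of 79 genes was searched in HC and in HK for an array far from the rest of its group, which chance alone produces in about 1 in 20 groups. Of 158 gene groups, 8 held such an array. That total is about the share that chance alone produces, but 5 of the 8 were in HC5. In HC5 the distance to the nearest HC array, on the log2 scale, was 7.01 for NEUROD1, 2.34 for SST, 1.42 for NFKBIA, 0.59 for GRIA2 and 0.56 for HIF1A, in each case below the others. CLDN3 stood apart in HC4 by 1.16 and in HK2 by 0.21, and GAL in HK2 by 3.57.

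The ketamine difference in hypoxia differed from that in normoxia at an unadjusted p under 0.05 for 14 genes, and for none after adjustment. Over all probes the share was 3.44% and over gene names 3.82%, and many of the genes searched were chosen for their HK-HC difference, which is part of this contrast and raises the count. The difference between them was positive for BARX2 (1.78), NFAT5 (1.23), SFN (1.18), GRM8 (1.08), SLC4A4 (0.96), ARNT (0.84), NUS1 (0.70), ADRB1 (0.68), THRB (0.68), PRKAA2 (0.67) and GRIA4 (0.66). It was negative for FCGR1A (-1.31), STAR (-1.13) and MTHFD2 (-0.90).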

How the results depend on the processing

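With 5 HC and 4 HK arrays, counts at the criterion depend on single arrays. Leaving out single arrays gave 235 to 580 higher and 174 to 491 lower probes, 0 to 1 after adjustment, and 183 to 433 with separate groups. Normexp background correction left 55 higher, 37 lower and 37 separate. With its local background limited, an alternative added after seeing the data, 683 were higher and 158 lower. Array weights gave 529 higher and 420 lower probes. The HC and HK arrays alone gave 256 and 180. Slide 1 alone gave 196 higher and 221 lower and slide 2 alone 238 and 224, with 3255 and 2241 separate, since so few arrays separate easily.

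With the replicate block 598 probes were higher, 457 lower and 2 passed adjustment. HC5 has no partner of its number, so this fit also takes HC5 out of the difference, and its counts mix both changes. In the pairing check, however, deviations of HK and HC arrays of the same number correlated over probes at 0.39, 0.31, 0.07 and 0.12, against a mean of -0.06 for other numbers. 3 of 4 were over 0.1, and 2 of 4 HK arrays correlated best with their own number. Since not all were over 0.1 and no label ties the numbers to ewes, they are not treated as pairs. No difference of a named gene past the criterion changed sign, though gene list medians moved in several settings, among them the authors' values, slide 1 alone and single arrays, and that of hippocampal neurons changed sign without HC5. The samples come from late-gestation fetuses at a single time, most probes have no gene name, and which fetuses were littermates is unknown.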
